A study of Mus musculus with 7 samples.

Results

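The miR-344 family in the mouse hippocampus comprised the 14 mature miRNAs whose id starts with mmu-miR-344, mmu-miR-344d-3* included, out of 757 ids in the deposited comparison tables, and they were read at 18 of 806 loci in the locus files of 7 small RNA libraries. The family was singled out because miR-344d-3* separated the trained libraries by genotype, so the trained genotype values of all members are given as a description, without p-values. At least 1 read was found for every one of the 14 members, but only 6 reached a mean of 10 reads per library, the minimum set for testing, which 476 of 756 mature sequences passed.

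Small RNA was sequenced from the hippocampus of male C57BL/6 mice aged 3 to 5 months, to ask which miRNAs change when nuclear protein phosphatase 1 (PP1) is inhibited and when mice learn. NIPP1* mice carry a fragment of the nuclear PP1 inhibitor NIPP1, fused to EGFP, behind a tetO promoter, together with a reverse tetracycline transactivator driven by the CaMKIIalpha promoter, so that a doxycycline diet switches the transgene on in forebrain neurons of the adult. The controls were littermates, labelled wildtype, and a doxycycline diet for them was not stated in the sources used here. Trained mice had performed an object recognition (NOR) task, and non-trained mice had been placed in the training chamber only. The labels give 1 non-trained control library, 1 non-trained NIPP1* library, 3 trained control libraries and 2 trained NIPP1* libraries. The paper describes the sequenced samples as pooled hippocampi. Whether the libraries of a group came from separate pools was not stated, so the spread is given as one between libraries.

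The libraries held 7285261 to 10017729 miRNA reads, and 1 read was worth 0.0998 to 0.137 RPM, the reads per 1000000 miRNA reads. The neuronal miRNA miR-124 was present at 3637 to 5135 RPM. A conflict between the files bears on every genotype result. The deposited mean for trained NIPP1* mice was rebuilt from the 3 libraries labelled trained control with a median deviation of 0.0291% over 271 miRNAs, and from the 2 libraries labelled trained NIPP1* with 10.3%. The mean for trained control mice was rebuilt from the 2 libraries labelled trained NIPP1* with 0.0409%, and from the 3 labelled trained control with 10.8%. The comparison tables thus hold the trained genotypes the other way round from the labels. Libraries are named by their labels here, and the genotype and training results of members that the assignment changes are given both ways.

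A miRNA gene is transcribed as a primary transcript from which a hairpin is cut, and the hairpin yields a product from its 5′ arm and one from its 3′ arm. One of these usually enters Argonaute and guides it to mRNAs through its seed, bases 2 to 8, while the other, written with an asterisk in older names, is mostly degraded. The miR-344 genes form a cluster of related hairpins near the imprinted genes Ndn, Magel2, Mkrn3 and Peg12, in the mouse region that corresponds to the Prader-Willi syndrome locus.

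All members mapped to the minus strand of chromosome 7. RefSeq lists 13 miR-344 hairpins, which lay at chr7:68828010-69230196 on mm9 (NCBIM37), a stretch of 402 kb with 0 annotated protein-coding genes. The hairpins of the 14 members numbered 9, in the genomic order Mir344d-1, Mir344d-2, Mir344d-3, Mir344b, Mir344c, Mir344, Mir344-2, Mir344g and Mir344f. The other 4 (Mir344e, Mir344h-1, Mir344h-2 and Mir344i) were not analysed here. The nearest protein-coding genes were Ube2nl, 133 kb before the cluster, and Ndn, 263 kb after it. Mir344-2 (chr7:69084913-69084992) lay in an intron of the long noncoding RNA gene A330076H08Rik and Mir344g (chr7:69127175-69127245) overlapped an exon of it, whereas the other hairpins overlapped no other annotated gene.

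**Figure D1:**
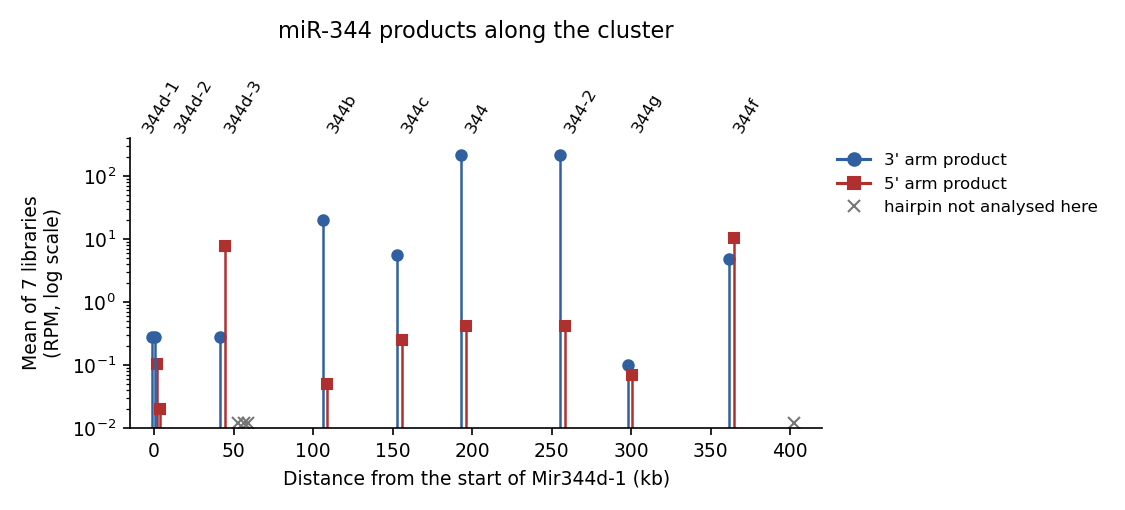
Mean level of each miR-344 product over the 7 libraries (RPM, log scale) against the distance of its hairpin from the start of Mir344d-1 in kb. Circles are 3′ arm products, squares 5′ arm products and crosses hairpins not analysed here. miR-344 is drawn at both of its hairpins at the same 220 RPM, and only the Mir344d-3 and Mir344f hairpins had a 5′ product above 1 RPM.

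The sequences below carry the comparison between members, and the seed is in capitals. The first 5 are the products, besides miR-344d-3*, with the most reads and the last 4 are the products of the Mir344d hairpins. Each is the sequence at its mm9 locus and is identical to a mature sequence in RefSeq (GRCm38.p6).
miR-344: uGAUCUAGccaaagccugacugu
miR-344c: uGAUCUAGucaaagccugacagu
miR-344b: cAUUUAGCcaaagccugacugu
miR-344f-3p: cUCUAGCCaggaccugacuac
miR-344f-5p: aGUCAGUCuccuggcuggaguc
miR-344d-3*: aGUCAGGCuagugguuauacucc
miR-344d-1*: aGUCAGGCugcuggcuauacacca
miR-344d-2*: aGUCUGGUugcuggcuauauucca
miR-344d: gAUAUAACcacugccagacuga

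The 14 members held 8 different seeds. The seed GUCAGGC was shared by 6 members, all from the 5′ arm: miR-344*, miR-344b*, miR-344c*, miR-344d-1*, miR-344d-3* and miR-344g-5p. No mature miRNA outside the family had it among the 1679 mouse sequences in the RefSeq table. It received 523 reads in all 7 libraries, of which 471 were miR-344d-3*. miR-344 and miR-344c shared the seed GAUCUAG, which received 13269 reads, and differed at 2 positions counted from the 5′ end (C9U and U21A, with miR-344 as reference). The other 6 seeds belonged to 1 member each.

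The family was scarce. Its reads made up 0.0224% to 0.0307% of the miRNA reads of a library, or 224 RPM to 307 RPM, and 15891 reads over all libraries. miR-344, from the 3′ arm, held 81.4% of them, between 77.5% and 84.5% in single libraries. It ranked 146 of the 756 mature sequences by mean level.

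The members with a mean of at least 10 reads ranked, by mean RPM over the 7 libraries, as miR-344 (220), miR-344b (20.1), miR-344f-5p (10.2), miR-344d-3* (7.80), miR-344c (5.53) and miR-344f-3p (4.87). miR-344 was above miR-344b, and miR-344b above miR-344f-5p, in 7 of 7 libraries and with no overlap of their ranges. Among miR-344f-5p, miR-344d-3*, miR-344c and miR-344f-3p, neighbours could not be ordered beyond their spread, since their ranges overlapped. Their order held in 4 or 5 of the 7 libraries. The lowest level of miR-344f-5p (7.67 RPM) was however above the highest of miR-344c (7.09 RPM) and of miR-344f-3p (7.39 RPM). Each of the other 8 members had at most 7 reads in any library at its mean over loci.

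**Figure D2:**
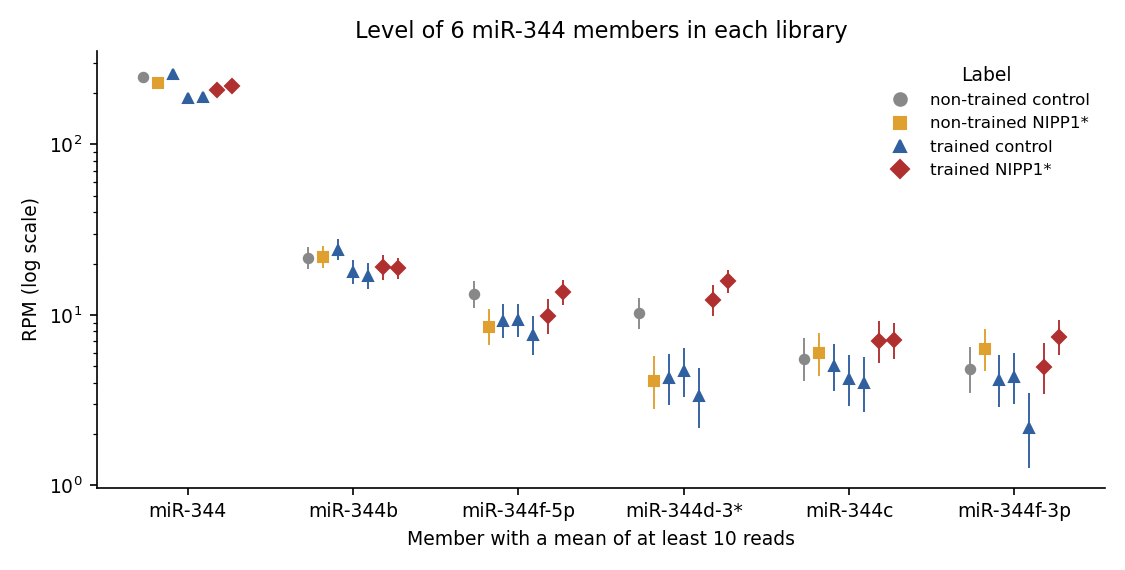
Level in each library of the 6 members that averaged 10 reads or more (RPM, log scale). Symbols give the label of the library and bars are 95% Poisson intervals, which cover counting error only. miR-344 lies between 186 and 259 RPM in every library, and miR-344d-3* is the member with the widest relative range, from 3.33 to 15.8 RPM.

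miR-344d-3* is the 5′ arm product of Mir344d-3, at chr7:68871182-68871204 on mm9, and its sequence has 1 exact copy in the genome. It had 91 reads in the non-trained control library and 33 in the non-trained NIPP1* library. The trained control libraries had 35, 39 and 26 reads, and the trained NIPP1* libraries 89 and 158. Relative to depth the levels were 10.2 RPM (95% Poisson interval 8.24 to 12.6) in non-trained control, 4.09 (2.81 to 5.74) in non-trained NIPP1*, 4.27, 4.67 and 3.33 in trained control and 12.2 and 15.8 in trained NIPP1*. The non-trained control and both trained NIPP1* libraries were therefore high, the other 4 libraries were low, and the lowest high library was above the highest low one. The intervals cover counting error only, since PCR copies were not told apart.

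By the labels, miR-344d-3* was at 4.09 ± 0.690 RPM in trained control (SD, n = 3) and 13.99 ± 2.51 RPM in trained NIPP1* (SD, n = 2). The log2 difference on the log2(RPM + 0.5) scale was 1.66 ± 0.23 (SE), and leaving out each trained library gave 1.48 to 1.84. With the trained libraries assigned as the comparison tables have them, the same difference was -1.66. The authors' mean for miR-344d-3*, in their normalised reads, was 113 in the trained control column and 34.2 in the trained NIPP1* column. These values chose the member, so no p-value is given for them. The 2 libraries labelled trained NIPP1* were both above the 3 labelled trained control for 4 of the 6 members, and for 18.7% of all 476 miRNAs, and nothing is read from that count.

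**Figure D3:**
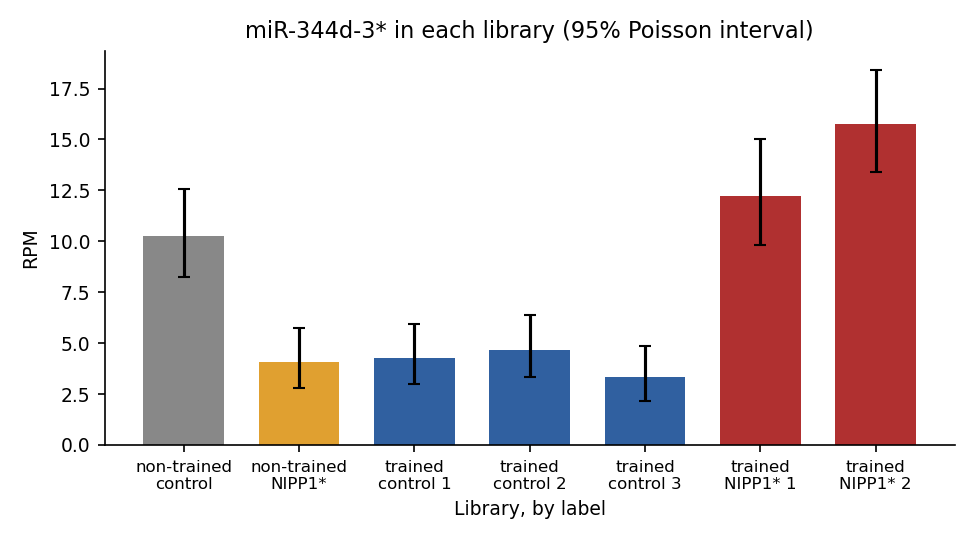
miR-344d-3* in each of the 7 libraries (bars, RPM) with 95% Poisson intervals for counting error, coloured and named by the labels. The non-trained control library and the 2 libraries labelled trained NIPP1* reach 10.2 to 15.8 RPM, while the other 4 stay between 3.33 and 4.67 RPM.

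Over all 7 libraries the direction of the genotype difference also turned with the assignment. With the tables' assignment, miR-344d-3* was at 12.7 ± 2.81 RPM in control (SD, n = 3) and 4.09 ± 0.563 RPM in NIPP1* (SD, n = 4), a ratio of 3.12, and the groups did not overlap. With the labels it was at 5.62 ± 3.13 RPM in control (SD, n = 4) and 10.7 ± 5.99 RPM in NIPP1* (SD, n = 3), and the groups overlapped. With the tables' assignment 2 of the 6 members, miR-344d-3* and miR-344f-5p, were higher in all controls than in any NIPP1* library, as were 7.77% of all miRNAs. With the labels 2 others, miR-344c and miR-344f-3p, were higher in all NIPP1* libraries than in any control, as were 3.15% of all miRNAs. Most of these libraries are those behind the choice of miR-344d-3*, and nothing is read from these counts.

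The oligodendrocyte markers miR-219-5p and miR-338-3p were at their 3 highest levels in the same libraries as miR-344d-3*. So were 7.77% of all 476 miRNAs. These libraries include those that chose miR-344d-3*, and nothing is read from the shared pattern. The neuronal marker miR-124 had it too, with 4085, 4091 and 5135 RPM there against 3637 to 4054 RPM elsewhere. The neuronal markers miR-9, miR-128 and miR-138 did not. miR-219-5p was at 19.96 RPM in non-trained control, 10.8 in non-trained NIPP1*, 9.08 to 11.6 in trained control and 18.97 to 26.7 in trained NIPP1*. The 2 oligodendrocyte markers together were at 4808, 3845, 2766 to 3299 and 4123 to 4375 RPM in those groups, in the same order. The red blood cell markers miR-451 and miR-144 summed to 116 and 85.0 RPM in the non-trained control and NIPP1* libraries, to 61.9 to 125 RPM in trained control and to 132 to 251 RPM in trained NIPP1*. The part of these cells in the levels of miR-344d-3* was not tested, and in bulk tissue fewer cells of a type and less RNA per cell cannot be told apart. Over all libraries, the summed markers were at 187012 to 214420 RPM for neurons, 13812 to 17619 for blood vessels, 400.4 to 1154 for choroid plexus (miR-211 at 0 to 0.275), 408 to 583 for leukocytes and microglia and 26.6 to 47.97 RPM for the hindbrain.

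The comparison of the non-trained libraries is the one that did not use the trained libraries behind the choice of miR-344d-3*. It has 1 library per group, and no test was run on it. miR-344d-3* was at 10.2 RPM in control and 4.09 RPM in NIPP1*, a log2 ratio of -1.32 with an exact 95% interval of -1.95 to -0.74. This interval covers counting error only. The ratio ranked 4 from the lowest of the 482 miRNAs that averaged 10 reads or more over these libraries, of which 1.45% had a log2 ratio of -1 or less, and no other member was past that size. miR-344f-5p had 118 and 69 reads and a log2 ratio of -0.63 (-1.08 to -0.19). miR-344, with 2216 and 1847 reads, had -0.12 (-0.21 to -0.03). The intervals of miR-344b, miR-344c and miR-344f-3p included 0, with log2 ratios of 0.02, 0.11 and 0.39. With 1 library per group, a spread between libraries could come only from the trained groups, and these differences were not set against it.

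miR-344, the most abundant member, lies in the 3′ arm of Mir344 (chr7:69022668-69022690) and of Mir344-2 (chr7:69084922-69084944). Its 2 genomic copies are identical, so a read cannot be assigned to one of them. It had 2216 reads in non-trained control and 1847 in non-trained NIPP1*, 2125, 1555 and 1477 in trained control and 1514 and 2209 in trained NIPP1*. In RPM trained control library 1 was the highest (259) and trained control libraries 2 and 3 the lowest (186 and 189), so that the trained control group spanned the range of all libraries. miR-344b (chr7:68935408-68935429) had 192 reads in non-trained control and 177 in non-trained NIPP1*, 198, 149 and 133 in trained control and 139 and 188 in trained NIPP1*. It was likewise highest in trained control library 1 (24.1 RPM) and lowest in libraries 2 and 3 of that group (17.8 and 17.0 RPM).

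miR-344f-5p (chr7:69191111-69191132) and miR-344f-3p (chr7:69191069-69191089) come from the last of the 9 hairpins. miR-344f-5p was at 13.3 RPM in non-trained control and 8.55 in non-trained NIPP1*, at 9.27, 9.34 and 7.67 in trained control and at 9.88 and 13.6 in trained NIPP1*. The trained NIPP1* libraries lay above the trained control libraries, the lower of them by less than the spread within either group. miR-344f-3p was at 4.84 and 6.32 RPM in the non-trained libraries, 4.15, 4.31 and 2.17 in trained control and 4.94 and 7.39 in trained NIPP1*, from 17 to 74 reads. Its lowest value was that of trained control library 3. miR-344c (chr7:68982209-68982231), from 31 to 71 reads, was at 5.51 and 5.95 RPM in the non-trained libraries, 5.00, 4.19 and 3.97 in trained control and 7.0 and 7.09 in trained NIPP1*. Both trained NIPP1* libraries were above all others.

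The range over the 7 libraries, as the highest minus the lowest log2(RPM + 0.5), was 2.09 for miR-344d-3*, 1.56 for miR-344f-3p, 0.78 for miR-344f-5p, 0.76 for miR-344c, 0.49 for miR-344b and 0.48 for miR-344. The median over all 476 miRNAs was 0.61. Among the 102 miRNAs with a mean read number within 2-fold of that of miR-344d-3*, the median range was 0.77 and miR-344d-3* ranked 6 from the widest. The range of miR-344d-3* was not independent of its choice.

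Training was compared in the 3 ways the design allows: trained against non-trained control, trained against non-trained NIPP1*, and both genotypes together. limma's two-sided moderated test with Benjamini-Hochberg adjustment called 0 of 476 miRNAs in each of the 3, a background of 0%, with 28, 21 and 16 (5.88%, 4.41% and 3.36%) at an unadjusted p under 0.05. edgeR's quasi-likelihood test also called 0 in each, with 26, 22 and 18 at an unadjusted p under 0.05, and DESeq2's Wald test called 1, 2 and 1 (0.21%, 0.42% and 0.21%), with none of them among the 5 members tested. Those were miR-129-2-3p in control and in both together, and miR-146a and miR-136 in NIPP1*, named here because they were called. Each genotype has a single non-trained library, which is assumed to vary like the trained ones.

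In controls the log2 fold change after training, on the log2(RPM + 0.5) scale, was below 0 for the 5 members other than miR-344d-3*, as it was for 59.5% of all 476 miRNAs. The median of the 5 was -0.31 beside -0.09 over all miRNAs, and 0 of them passed. miR-344f-5p had a log2 fold change of -0.58 ± 0.27 (SE, limma adjusted p = 0.666), from 13.3 RPM to 9.27, 9.34 and 7.67. miR-344f-3p had -0.45 ± 0.42 (limma adjusted p = 0.719), and -0.17 without trained control library 3. miR-344c, miR-344 and miR-344b had -0.31, -0.25 and -0.15, with limma adjusted p of 0.717, 0.719 and 0.820. Without trained control library 1 miR-344 had -0.41 and miR-344b -0.30, and without library 3 miR-344b had -0.06. With the tables' assignment of the trained libraries miR-344c and miR-344f-3p had the opposite sign, 0.33 and 0.30, and miR-344f-5p, miR-344 and miR-344b had -0.19, -0.22 and -0.19, each with a limma adjusted p of 0.993. miR-344d-3*, whose trained values chose it, had -1.24 ± 0.29 by the labels and 0.42 by the tables' assignment, given without p-values.

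In NIPP1* mice 2 of the 5 members other than miR-344d-3* had a log2 fold change above 0, as did 43.9% of all miRNAs, with a median of -0.06 beside -0.03 over all miRNAs. miR-344f-5p had 0.42 ± 0.29 (limma adjusted p = 0.973), with 0.64 without trained NIPP1* library 1 and 0.20 without library 2, and miR-344c 0.23 ± 0.27 (limma adjusted p = 0.990). miR-344b, miR-344 and miR-344f-3p had -0.21, -0.10 and -0.06, with a limma adjusted p of 0.997 each, and miR-344f-3p had 0.21 without library 1 and -0.33 without library 2. The tables' assignment gave miR-344f-3p -0.80 and miR-344c -0.41, with a limma adjusted p of 0.957 each, and miR-344f-5p 0.03, with 0.982. It gave miR-344b and miR-344 values of -0.17 and -0.13. miR-344d-3* had 1.65 ± 0.31 by the labels and -0.01 by the tables' assignment, given without p-values. By the labels, 3 of the 6 members (miR-344d-3*, miR-344f-5p and miR-344c) were lower in every trained control library and higher in every trained NIPP1* library than in the non-trained library of their genotype, as were 13.4% of all miRNAs, and 22.1% were so in these or the opposite directions. The trained values of miR-344d-3* chose it. With the tables' assignment 9.24% of all miRNAs moved oppositely in one or the other direction, and so did 2 members, miR-344c and miR-344f-3p, with the directions exchanged.

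**Figure D4:**
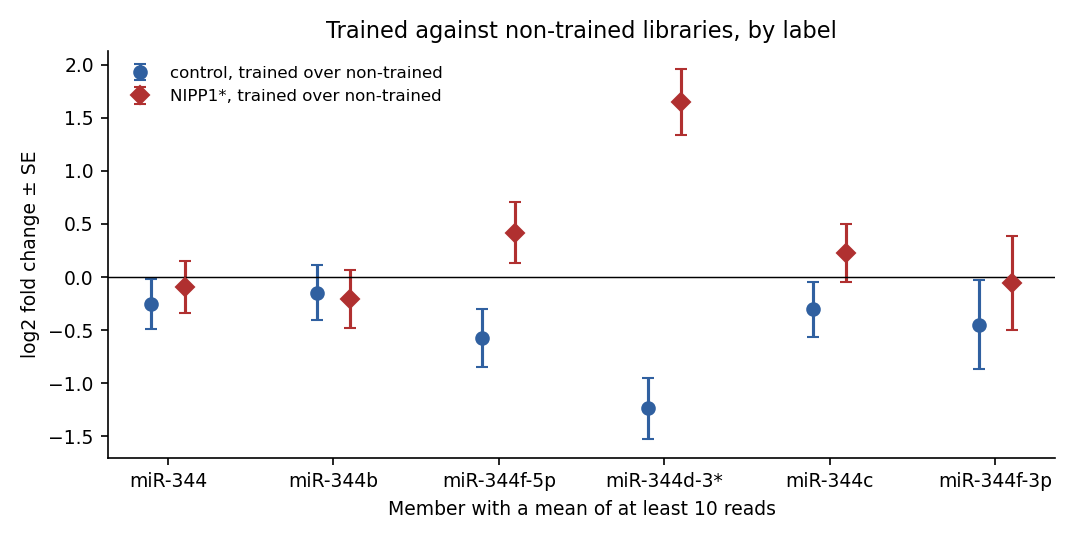
log2 fold change (points, on the log2(RPM + 0.5) scale) of the trained against the non-trained libraries for 6 members, in control and in NIPP1* mice by the labels, with bars of 1 SE from limma. All 6 control values are below 0, the 2 values of miR-344d-3* lie at -1.24 and 1.65 and have no p-value given, and the 10 other values have limma adjusted p-values of 0.666 or more.

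With both genotypes together the 5 members other than miR-344d-3* had log2 fold changes of -0.25 to -0.04, with a median of -0.18 beside -0.06 over all miRNAs, of which 60.3% were below 0. Their limma adjusted p-values were 0.926 to 0.983. The other miRNAs of chromosome 7, of which 20 of 43 were tested, had a median of 0.08. The other products with an asterisk in their id, of which 127 of 230 were tested, had a median of -0.08, and 0 in either list passed. On chromosome 7 outside the family, miR-210 had the lowest value (-0.59 ± 0.24, limma adjusted p = 0.874), followed by miR-150* (-0.22). miR-139-5p had the highest value (0.32 ± 0.15, limma adjusted p = 0.874), followed by miR-3102 (0.27).

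The hairpins differed in the arm that gave the reads. The 3′ arm held 99.8% of the 12968 reads of Mir344 and Mir344-2 together, 99.7% of the reads of Mir344b and 95.9% (exact 95% binomial interval 93.2% to 97.7%) of those of Mir344c. In Mir344f it held 32.3% (29.3% to 35.5%) of 900 reads, so that the 5′ product exceeded the 3′ product in 7 of 7 libraries, with a share of 22.1% to 42.5%. The 3 Mir344d hairpins, which have the same 3′ product, gave 478 reads from their 5′ arms. The 3 loci of the 3′ product had different counts, and no whole number of 3′ reads follows from them. The 3′ share was 3.43% with the mean over the loci rounded to whole reads in each library (17 reads), 5.53% with the highest locus of each library (28 reads) and 9.30% with the sum of the loci (49 reads), so that the 5′ arm was the more read one by each count. The Mir344g hairpin had 10 reads in all, too few to tell its arms apart.

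**Figure D5:**
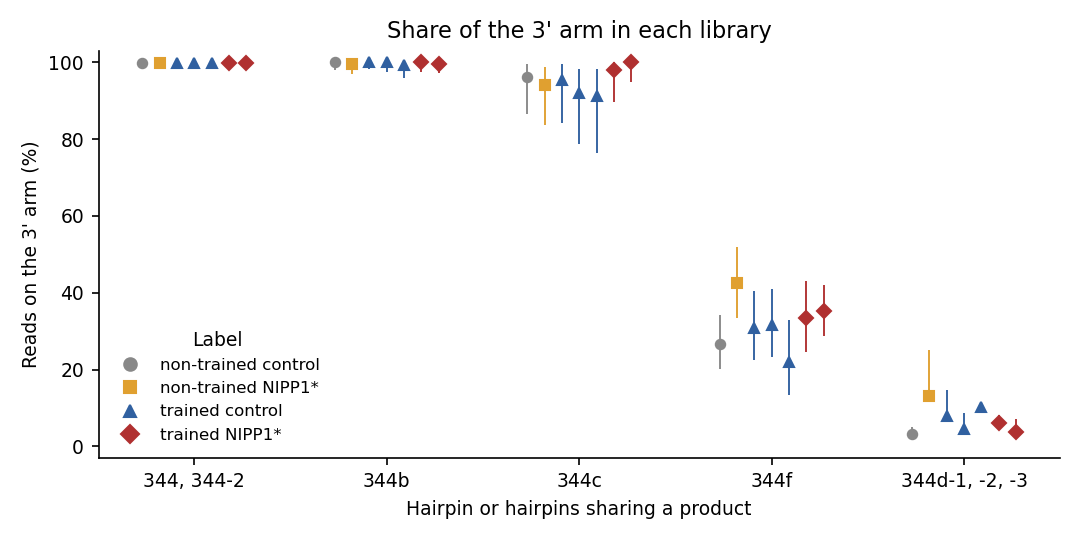
Share of the reads on the 3′ arm in each library (%), by hairpin or by hairpins with a common product, with exact 95% binomial intervals for counting error, except for the Mir344d hairpins, where the point uses the highest locus of the 3′ product and the bar reaches to the sum of its loci. The shares lie above 91% for Mir344, Mir344-2, Mir344b and Mir344c in every library, between 22.1% and 42.5% for Mir344f, and at 25.0% or less for the Mir344d hairpins by the sum of the loci.

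In Mir344f the highest share was that of the non-trained NIPP1* library, 42.5% (33.5% to 51.9%), beside 26.7% (20.1% to 34.2%) in non-trained control, and these intervals overlapped. Of the other libraries, trained control library 3, with 22.1% (13.4% to 33.0%), had an interval that did not reach that of the non-trained NIPP1* library. In the Mir344d hairpins the non-trained NIPP1* library was again the highest, with 33 reads on the 5′ arms and 5 at the highest locus of the 3′ product, a share of 13.2%, beside 3.12% to 10.3% in the other libraries.

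Among the 5′ products of the 3 Mir344d hairpins, miR-344d-3* had 471 reads, miR-344d-1* 6 and miR-344d-2* 1. miR-344d-1* differed from miR-344d-3* at 4 of the shared positions (G10A, C11G, C15U and A21U, counted from the 5′ end with miR-344d-1* as reference), all outside the seed. miR-344d-2* differed at 6 (U5A, U8C, G10A, C11G, C15U and U20C), of which U5A and U8C lie in the seed. The longest run of miR-344d-3* that could pair with the common 3′ product miR-344d by A-U and G-C pairs was 10 bases, at positions 10 to 19. In miR-344d-1* it was 5 bases and in miR-344d-2* 7 bases. These runs are in capitals here. They are the longest matching stretches of letters, whether or not they face each other in the hairpin.
miR-344d-3*: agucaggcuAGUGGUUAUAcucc
miR-344d-1*: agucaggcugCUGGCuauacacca
miR-344d-2*: AGUCUGGuugcuggcuauauucca

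In the other hairpins the longest such run was 9 bases for miR-344* and miR-344b*, 8 for miR-344c* and miR-344f-5p and 6 for miR-344g-5p. The runs are a description of the letters. They count neither G-U pairs nor bulges.

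The rarely read members were miR-344*, with 25 reads over the 7 libraries, miR-344c* with 14, miR-344d-1* and miR-344g-3p with 6 each, miR-344g-5p with 4, miR-344b* with 3 and miR-344d-2* with 1. A library with 0 reads of a member allows a level of up to 0.299 to 0.412 RPM, depending on its depth, as the level of 3 reads. miR-344d was read at 3 loci whose counts differed although the mature sequence is the same. The locus of Mir344d-1 (chr7:68828013-68828034) had 0 to 6 reads per library and the other 2 loci 0 to 3. The mean over the loci was 0.277 RPM and the highest locus gave 0.481 RPM. Its sequence has 5 exact copies in the genome, all on chromosome 7. These 8 members were not compared between groups, since their reads are too few for it.

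The miRNAs whose levels followed miR-344d-3* most closely over the 7 libraries, among 317 outside the family with a mean of at least 100 reads, were miR-379 (Pearson r = 0.97), miR-136 (0.94), miR-340-3p (0.94), miR-152 (0.92) and miR-379* (0.92). miR-379, miR-136 and miR-379* lie on chromosome 12, miR-379 at chr12:110947275-110947295. miR-379 was highest in trained NIPP1* (2431 and 2613 RPM) and non-trained control (2315), and lower in non-trained NIPP1* (2087) and trained control (1903 to 2108). miR-340-3p put the libraries in the same order as miR-344d-3* (Spearman rho = 1).

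For miR-344 the closest were miR-19b (Pearson r = 0.96), miR-598 (0.95), miR-19a (0.94), miR-137 (0.93) and miR-3068 (0.93). miR-19b, like miR-344, was lowest in trained control libraries 2 and 3, with 540 and 566 RPM against 677 to 1051 RPM in the other libraries. Within the family miR-344 and miR-344b had r = 0.93, miR-344f-5p and miR-344d-3* 0.86, miR-344c and miR-344f-3p 0.81, and miR-344c and miR-344d-3* 0.81. miR-344 and miR-344d-3* had r = 0.19. The 2 arms of Mir344f had r = 0.63. All these correlations are over 7 libraries, the points share their depth and group, and the highest were picked from many, so they are descriptions with no test.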

How the data were processed

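Small RNA libraries were sequenced by the authors on an Illumina instrument. Adapter-trimmed inserts were aligned to the mouse genome (mm9). The submitters' processing notes name CASAVA 1.7.0, Bowtie and bedtools, with no version for the last 2. The deposited locus files give the percent of miRNA reads at each mature locus, and the deposited comparison tables give the authors' normalised reads (signal) per miRNA and group. Columns with the authors' fold changes and p-values were not used, and 2 columns of single libraries in the table of non-trained mice were not used.

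The depth of each library, and so the read counts, followed from the spacing of its low values: 100% of the values of up to 100 reads were whole within 0.1. Loci with an identical mature sequence were averaged without rounding (the tables' values follow the mean rounded to whole reads, which differs for miR-344d alone among the members), and reads were scaled to RPM. Of the 757 ids, 698 were joined to a locus, among them all 14 members.

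The main test was limma 3.58.1 on log2(RPM + 0.5) with all 7 libraries in one model. Benjamini-Hochberg adjustment was over the 476 miRNAs that averaged 10 reads or more, at a threshold of 0.05. The test was also run on simulated data with 200 changed miRNAs. Their changes were larger than those of the tested members, so that run does not show whether changes of the members' size would be called. edgeR 4.0.16, DESeq2 1.42.0, other normalizations, pseudocounts and filters, leaving out each trained library, and the tables' grouping were alternatives. The non-trained libraries were compared by the conditional exact binomial interval (scipy 1.17.1). Groups came from the labels, and replicates are libraries of pooled hippocampi, so that the p-values measure only the spread between these libraries. The text names every member, the 5 miRNAs closest to miR-344d-3* and to miR-344, and the 2 highest and 2 lowest other miRNAs of chromosome 7. The members and lists were chosen with earlier results of these data known.

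Marker lists were neuron (miR-124, miR-9, miR-128 and miR-138), oligodendrocyte (miR-219-5p and miR-338-3p), choroid plexus (miR-204 and miR-211), red blood cell (miR-451 and miR-144), blood vessel (miR-126-3p, miR-143 and miR-145), leukocyte and microglia (miR-223 and miR-142-3p) and hindbrain (miR-10a and miR-10b).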

Additional observations from a re-analysis of the deposited data

Results flagged for a closer look

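For 3 of the 6 members with a mean of at least 10 reads, every trained control library was lower than the non-trained control library while every trained NIPP1* library was higher than the non-trained NIPP1* library, by the labels. The log2 fold changes after training were -1.24 in control and 1.65 in NIPP1* for miR-344d-3*, -0.58 and 0.42 for miR-344f-5p, and -0.31 and 0.23 for miR-344c. The difference between the genotypes was not tested, and each genotype has a single non-trained library. The same moves were seen for 13.4% of all 476 miRNAs, and opposite moves in either direction for 22.1%. With the tables' assignment of the trained libraries, 9.24% of all miRNAs showed opposite moves in either direction, among them miR-344c and miR-344f-3p but neither miR-344d-3* nor miR-344f-5p. The values of miR-344d-3* in the trained libraries are those that chose it.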

How the results depend on the processing

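Exchanging the labels for the tables' assignment gave miR-344c 0.33 in control and -0.41 in NIPP1* after training and miR-344f-3p 0.30 in control, each of the opposite sign, and moved miR-344f-3p in NIPP1* from -0.06 to -0.80 and miR-344f-5p from -0.58 to -0.19 in control and from 0.42 to 0.03 in NIPP1*, with no call gained. DESeq2's Wald test gave miR-344f-3p 0.0098 in NIPP1*, and leaving out the first trained NIPP1* library gave it 0.21 there, within a range of -0.33 to 0.21. With both genotypes together miR-344c was 0.0219 with DESeq2's size factors, 0.0139 with edgeR and 0.0238 with DESeq2's Wald test, and miR-344f-5p was 0.0299 without the first trained NIPP1* library, where its range was -0.19 to 0.03. All these values are within 1 SE of 0, other than those under the tables' assignment. DESeq2's Wald test called 1 miRNA for training in control, 2 in NIPP1* and 1 in both together, against 0 with limma. Between the trained genotypes it called 1, miR-344d-3* itself, which was chosen by those values, so that nothing is read from this call. In the training comparisons and between the trained genotypes limma called 0 miRNAs without any one trained library. At a mean of at least 100 reads, 3 miRNAs were past a log2 ratio of 1 between the non-trained libraries, against 14. The cause of these changes was not tested. Of the 368 alternatives for the members' fold changes and ratios, 9 changed the sign of a tested value, 8 moved a value given without a p-value by more than the spread (6 of them the tables' assignment), 351 did neither, and the limma, edgeR and DESeq2 adjusted p-values of the tested members ranged from 0.167 to 1. The genotype ratios over 7 libraries and the counts of the Mir344d 3′ arm by the highest locus and by the sum of the loci were chosen after seeing the data. No paired analysis was possible because the replicate numbers only name the samples. The 1 library per non-trained group and the at most 158 reads of miR-344d-3* in any library limit the precision.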
